A study of Mus musculus with 18 samples.

Results

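The MHC class II genes described here are H2-Aa, H2-Ab1, H2-Eb1, H2-DMa, H2-DMb1, Cd74 and Ciita. They were chosen by symbol, as genes of 1 pathway, and are 7 of the 19057 gene symbols in a table of liver RNA-seq values. All 7 were found in the table. The table was filtered at 1 RPKM (read counts scaled by transcript length and by the number of mapped reads) in at least 3 of 18 libraries before testing. This left 10822 genes, among them 6 of the 7 class II genes; Ciita stayed below 1 RPKM in every library and was tested separately.

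The livers came from ICR mice, an outbred strain, aged 10 weeks, with 3 mice in each of 6 groups. Con mice were controls and AOS mice received alginate oligosaccharide at 10 mg/kg. STZ mice received streptozotocin, which destroys pancreatic beta cells and serves as a model of type 1 diabetes, and STZ+AOS mice received streptozotocin and the oligosaccharide at 10 mg/kg. Con-FMT and A10-FMT mice were given streptozotocin and then oral fecal microbiota transplantation (FMT) from control donors or from donors dosed with AOS at 10 mg/kg. The transplanted material was small-intestinal content pooled over the donors of a group, and the mice were male. Each library was made from whole liver RNA, so fewer cells of a type and less RNA per cell cannot be told apart. The labelled tissue was checked against hepatocyte markers. Alb, which encodes serum albumin, was between 24367 and 37719 RPKM in the 18 libraries, and none of the 7 hepatocyte markers was at 0 in any library.

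MHC class II molecules present peptides from endocytosed proteins to CD4 T cells. In mice the A molecule is made of the chains encoded by H2-Aa and H2-Ab1, and the E molecule of the chains encoded by H2-Ea and H2-Eb1. Cd74 encodes the invariant chain, which guides the dimers to endosomes and blocks the groove until the H2-DM dimer exchanges its last fragment for a peptide. Ciita encodes the transactivator that switches on the group, and in liver class II molecules are carried mostly by dendritic cells, B cells and macrophages rather than by hepatocytes.

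H2-DMa, H2-DMb1, H2-Ab1, H2-Aa and H2-Eb1 lie together on chromosome 17 (GRCm38), from 34119541 to 34316674, a stretch of 197 kb. H2-Aa spans 34282744 to 34287823 on the minus strand, H2-Eb1 34305867 to 34316674 on the plus strand and H2-DMb1 34153072 to 34160230 on the plus strand. Promoters of this family carry an X box and a Y box a fixed distance apart, which bind the RFX and NF-Y complexes that Ciita joins. RefSeq promoter windows (GRCm38.p6) were matched by symbol for 4 of the 7 genes. The 110 bases before the start site are shown for 3 of them with these boxes in that stretch. Whether the boxes bear on the levels described below was not tested. Capitals mark ATTGG (Y box), ACNGATG (part of the X box) and TGACGTCA (the X2 part).

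H2-Aa (chr17:34287824-34287933, minus strand): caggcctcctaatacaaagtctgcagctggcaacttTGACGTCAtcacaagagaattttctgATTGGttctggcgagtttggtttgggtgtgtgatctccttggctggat

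H2-Eb1 (chr17:34305757-34305866, plus strand): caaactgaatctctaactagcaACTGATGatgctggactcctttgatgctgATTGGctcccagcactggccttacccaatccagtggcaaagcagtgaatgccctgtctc

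H2-DMb1 (chr17:34153081-34153190, plus strand): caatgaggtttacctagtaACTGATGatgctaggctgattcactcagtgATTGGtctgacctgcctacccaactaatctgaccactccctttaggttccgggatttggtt

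The windows follow RefSeq's start sites. For H2-DMb1 the GENCODE gene given above starts upstream of RefSeq's, so its stretch lies within the GENCODE span. In H2-Eb1 and H2-DMb1 the ACNGATG and ATTGG motifs stood 22 and 23 bases apart. In H2-Aa, TGACGTCA stood 18 bases before ATTGG. Over 32851 RefSeq promoter windows searched on both strands, 37.4% held ATTGG, 9.85% ACNGATG and 1.79% TGACGTCA, while ACNGATG followed by ATTGG after 15 to 30 bases was in 0.137%. Among 13 genes of the class II family, 8 had a window, and of these all 8 held ATTGG in at least 1 window and 4 held the spaced combination (H2-Eb1, H2-DMb1, H2-DMb2 and H2-Eb2). The motifs do not overlap one another, and a match describes letters only.

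The members differed widely in level. Averaged over the 18 libraries, the invariant chain gene Cd74 had the highest level of the group at 38.8 RPKM, ahead of H2-Aa at 17.2 RPKM and H2-Ab1 at 12.0 RPKM. H2-Eb1 averaged 2.57 RPKM, and the exchange factor genes H2-DMa and H2-DMb1 averaged 1.57 and 1.52 RPKM. Ciita was the lowest at 0.129 RPKM, between 0.06 and 0.21 RPKM. RPKM is scaled per transcript length, so length by itself does not set these levels apart. Reads were aligned to the mm10 reference, the mice were outbred and the labels give no H2 haplotype. Whether reads mapped equally well for each gene and mouse was not tested, which limits comparison of levels between genes and between mice.

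The reads behind each value were estimated from 13 genes whose low values step in whole multiples, which gave about 11260000 mapped reads per library and relative depths of 0.931 to 1.08. On that estimate Cd74 rested on 355 to 945 reads, H2-Aa on 135 to 385, H2-DMb1 on 13 to 50 and Ciita on 4 to 14. The lowest H2-Eb1 value rested on 2 reads. Counting error alone was thus about 4.12% of the median value for Cd74 but 22.4% for H2-DMb1 and 35.4% for Ciita.

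H2-Aa, the α chain of the A molecule, was 13.1, 13.3 and 13.4 RPKM in Con mice 1 to 3 and 30.3, 16.2 and 19.6 RPKM in AOS mice 1 to 3. It was 22.3, 17.1 and 13.4 RPKM in the STZ mice and 24.5, 16.9 and 12.3 RPKM in the STZ+AOS mice. It was 19.8, 14.0 and 13.6 RPKM in the Con-FMT mice and 23.9, 10.6 and 15.0 RPKM in the A10-FMT mice. The Con mice were nearly alike, and mouse 1 was the highest in the AOS, STZ, STZ+AOS, Con-FMT and A10-FMT groups. Ordered by mean, H2-Aa ran AOS, STZ+AOS, STZ, A10-FMT, Con-FMT and Con, and 4 of the 5 neighbours in that order overlapped. The exception was Con-FMT above Con, groups that did not overlap for 45.3% of all genes tested.

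H2-Ab1, the β chain gene of the same molecule, ranged from 7.96 RPKM in A10-FMT mouse 2 to 18.5 RPKM in AOS mouse 1. Its Con mice were again close, at 9.31, 9.62 and 9.55 RPKM, and its STZ mice were at 18.4, 14.6 and 10.9 RPKM. All 3 STZ mice were above all 3 Con mice. The order of its group means began with STZ and ended with Con, and all 5 neighbours overlapped.

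Cd74 followed the A chains. It was 30.0, 28.1 and 32.4 RPKM in Con mice 1 to 3 and 52.5, 44.6 and 34.4 RPKM in STZ mice 1 to 3. It was 59.5, 32.4 and 42.1 RPKM in the AOS mice and 54.2, 39.9 and 30.8 RPKM in the STZ+AOS mice. It was 44.8, 27.3 and 31.7 RPKM in the Con-FMT mice and 52.0, 22.3 and 40.4 RPKM in the A10-FMT mice. The lowest STZ mouse was above the highest Con mouse. The order of means ran AOS, STZ, STZ+AOS, A10-FMT, Con-FMT and Con, and all 5 neighbours in it overlapped.

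H2-Eb1, the β chain gene of the E molecule, had the widest range of the group. It was 2.79, 1.01 and 2.05 RPKM in Con mice 1 to 3 and 1.20, 0.26 and 0.08 RPKM in STZ mice 1 to 3. It was 9.23, 1.85 and 4.71 RPKM in the AOS mice and 6.12, 1.30 and 1.64 RPKM in the STZ+AOS mice. It was 2.91, 1.09 and 1.28 RPKM in the Con-FMT mice and 4.04, 1.62 and 2.99 RPKM in the A10-FMT mice. STZ mice 2 and 3 were the lowest of the 18, below every mouse of the STZ+AOS and A10-FMT groups, whose 3 mice each were above all STZ mice. The highest library was 115 times the lowest, against 2.33 times for H2-Ab1 and 2.85 times for H2-Aa. The 115 rests on STZ mouse 3, whose 0.08 RPKM came from about 2 reads. The next lowest library was STZ mouse 2 at 0.26 RPKM, which would give a much smaller range.

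H2-DMa and H2-DMb1, the exchange factor chains, were between 0.86 and 2.41 RPKM and between 0.83 and 3.16 RPKM. The Con mice held 1.31, 1.02 and 1.46 RPKM of H2-DMa and 1.21, 1.00 and 1.17 RPKM of H2-DMb1, and the STZ mice 2.41, 1.90 and 1.14 RPKM and 2.35, 1.42 and 1.85 RPKM. The groups overlapped for H2-DMa, while all STZ mice were above all Con mice for H2-DMb1. H2-DMb1 is nearly identical to H2-DMb2, which ranged from 0.26 to 1.12 RPKM, so the division of reads between them is uncertain.

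**Figure D1:**
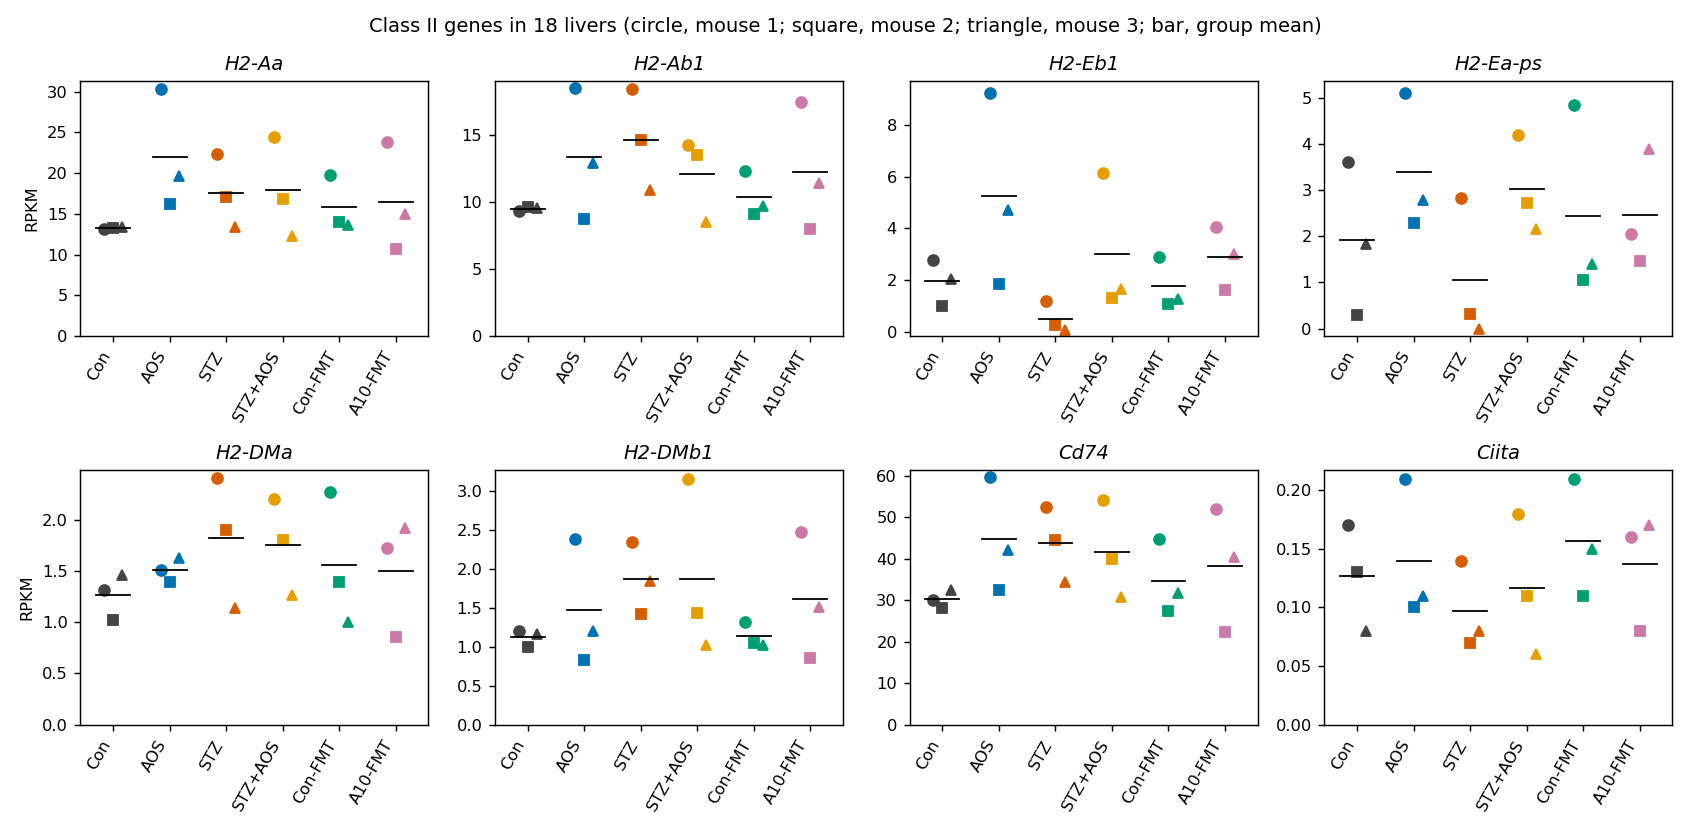
RPKM of each class II gene and of H2-Ea-ps (vertical axes, linear, each panel on its own scale) in the 3 mice of each group (horizontal axis), with the group mean as a bar. The 3 Con mice are close together for H2-Aa and H2-Ab1, mouse 1 of most other groups stands above its group, and H2-Eb1 is lowest in STZ mice 2 and 3.

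The first comparison asked whether the class II genes changed in the diabetic liver. In a limma model of log2(RPKM + 1) over all 18 libraries, 36.1% of the genes tested differed between STZ and Con at an adjusted p under 0.05. None of the 6 class II genes tested did, and 0 of 6 had an unadjusted p under 0.05, beside 47.1% of all genes. H2-Ab1 was 0.55 higher on the log2 scale (95% confidence interval -0.04 to 1.13, limma adjusted p = 0.129) and Cd74 0.50 higher (-0.12 to 1.13, adjusted p = 0.185). H2-Aa, H2-DMb1 and H2-DMa had log2 changes of 0.35, 0.42 and 0.29. Without STZ mouse 1 those of H2-Aa and H2-DMa were 0.17 and 0.14, and without STZ mouse 3 that of H2-DMa was 0.48. The intervals of H2-Ab1 and Cd74 run from just below 0 to above 1 on the log2 scale, so changes of that size could not be told from none with 3 mice a group.

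The median log2 change of the 6 genes was 0.39, beside 0.21 over all genes tested, and 5 of the 6 were positive beside 8141 of 10822. Under median-ratio scaling of the libraries the median of all genes was -0.01 and that of the 6 genes 0.19. STZ and Con did not overlap for H2-Ab1, H2-DMb1 and Cd74, 3 of the 6, beside 47.6% of all genes tested. A share near that of all genes is no result about the group.

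H2-Eb1 was the only one of the 6 whose STZ mean was below the Con mean. It was 0.513 ± 0.601 RPKM in STZ and 1.95 ± 0.894 RPKM in Con (SD, n = 3), a log2 change of -0.99 (-2.01 to 0.04, limma adjusted p = 0.118). Near 0 the pseudocount shrinks the fold: with 0.1 in place of 1 the log2 change was -2.12 and the adjusted p 0.0349. In a fit of only the Con, STZ, Con-FMT and A10-FMT groups the adjusted p was 0.0428 for the same difference. The call for H2-Eb1 therefore depended on these settings, and its interval in the model of all groups includes 0.

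**Figure D2:**
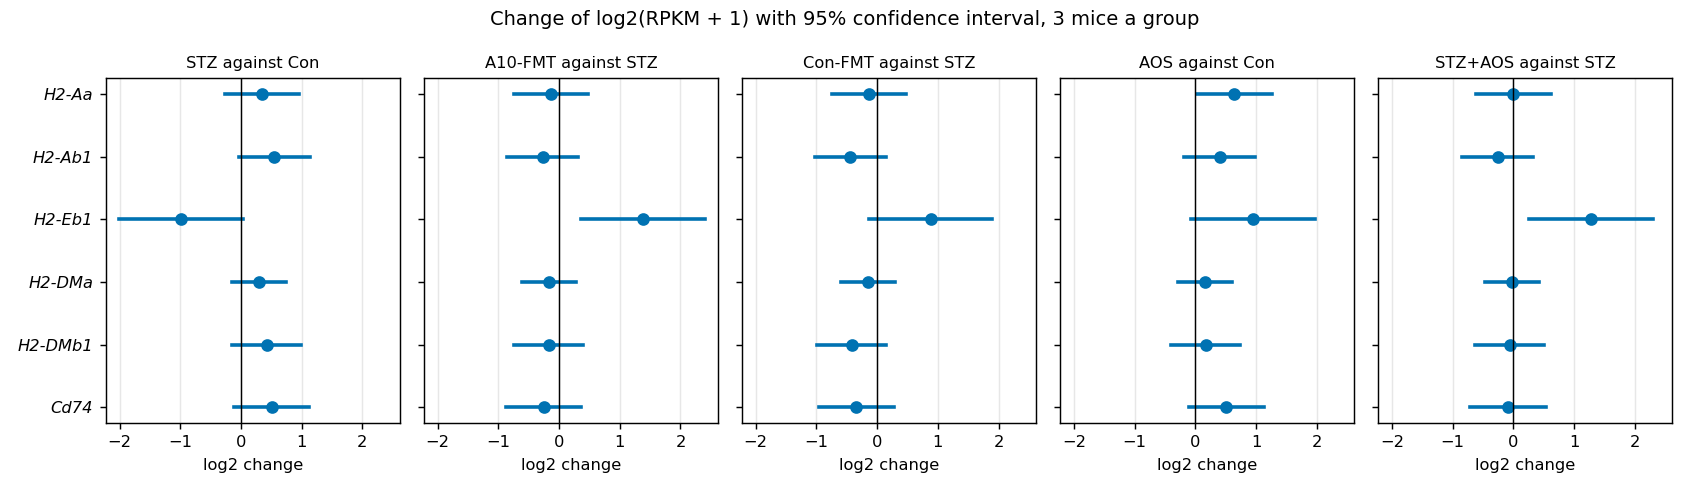
Log2 change of each of the 6 class II genes tested (points) with its 95% confidence interval (lines) in 5 comparisons, each of 3 mice against 3. The intervals include 0 except those of H2-Eb1 in A10-FMT and in STZ+AOS against STZ, and of H2-Aa in AOS against Con.

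The next comparisons asked what either transplant changed in the STZ liver. They share the same 3 STZ mice. In A10-FMT against STZ, 0.49% of all genes differed and none of the 6 class II genes, with 1 of 6 and 18.9% of all genes at an unadjusted p under 0.05 in limma. That gene was H2-Eb1, at 2.88 ± 1.21 RPKM in A10-FMT (SD, n = 3). Its log2 change was 1.38 (0.36 to 2.40, limma adjusted p = 0.155). It was higher in 3 of 3 A10-FMT mice than in any STZ mouse, beside 21.4% of all genes without overlap. H2-Aa, H2-Ab1, H2-DMa, H2-DMb1 and Cd74 had log2 changes of -0.13, -0.27, -0.17, -0.17 and -0.25. Single mice set these values: that of Cd74 was -0.51 without A10-FMT mouse 1 and 0.084 without A10-FMT mouse 2. In Con-FMT against STZ, 0.166% of all genes differed and again 0 of the 6, with 0 at an unadjusted p under 0.05 beside 18.8% of all genes. The log2 changes there were -0.14, -0.44, -0.15, -0.42 and -0.34 in the same order, and 0.88 (-0.14 to 1.90) for H2-Eb1. Here too single mice moved the values: that of H2-Ab1 was -0.27 without STZ mouse 1, and that of Cd74 ran from -0.54 without Con-FMT mouse 1 to -0.19 without Con-FMT mouse 2. A10-FMT against Con-FMT gave no call among all genes (0%) or the class II genes, with 2.26% of all genes and 0 of the 6 at an unadjusted p under 0.05. H2-Eb1 differed by 0.50 between the transplants, with an interval from -0.52 to 1.52, and by 0.29 without A10-FMT mouse 1 and 0.78 without Con-FMT mouse 1.

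Against Con, the transplanted groups also showed no called class II gene, beside 17.1% of the genes tested for A10-FMT and 18.1% for Con-FMT. In limma 0 of the 6 had an unadjusted p under 0.05 in either, beside 33.1% and 34.4% of all genes. The log2 changes from Con lay between 0.12 and 0.39 in A10-FMT and between -0.11 and 0.22 in Con-FMT. These limits rested on single mice. The upper ones, of H2-Eb1 in A10-FMT and of H2-Aa in Con-FMT, were much smaller without mouse 1 of the transplanted group. That of H2-Eb1 was larger without A10-FMT mouse 2. The lower limit in Con-FMT, also of H2-Eb1, was positive without Con mouse 1.

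AOS alone was compared with Con. Only 0.00924% of all genes, a single gene, differed, and none of the class II genes. H2-Aa was 22.0 ± 7.38 RPKM in AOS and 13.3 ± 0.182 RPKM in Con (SD, n = 3). Its log2 change was 0.64 (0.03 to 1.26, limma adjusted p = 0.671), the only 1 of the 6 with an unadjusted p under 0.05, beside 7.22% of all genes. H2-Aa and Cd74 were higher in 3 of 3 AOS mice than in any Con mouse, beside 24.4% of all genes without overlap. H2-Eb1 had a log2 change of 0.95 (-0.07 to 1.97). Without AOS mouse 1 the log2 changes were 0.40 for H2-Aa, 0.29 for Cd74 and 0.50 for H2-Eb1. STZ+AOS against STZ gave 0% of all genes and 0 of the 6, with 1 of the 6 and 6.07% of all genes at an unadjusted p under 0.05. This was H2-Eb1, with a log2 change of 1.28 (0.26 to 2.30, limma adjusted p = 0.806), or 0.77 without STZ+AOS mouse 1. It was higher in 3 of 3 STZ+AOS mice than in any STZ mouse, beside 5.13% of all genes without overlap. STZ+AOS against AOS gave 37.9% of all genes and 0 of the 6, with 0 at an unadjusted p under 0.05 beside 48.1% of all genes. The test of whether the STZ effect differed with AOS gave 0% of all genes and 0 of the 6 in limma, with 5.4% of all genes and 0 of the 6 at an unadjusted p under 0.05.

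The mean of H2-Eb1 was the lowest in STZ of the 6 groups, and the comparisons with STZ all rest on the same 3 STZ mice. Leaving out each mouse in turn gave 0 called class II genes in every comparison. Without STZ mouse 1 the H2-Eb1 log2 change against Con was -1.29, and without STZ mouse 3 it was -0.78.

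Ciita was tested by an exact two-sided permutation test of 3 mice against 3, whose smallest possible p is 0.1. Over 9 comparisons the exact permutation p ran from 0.2 to 1. Its group means lay between 0.0967 RPKM in STZ and 0.157 RPKM in Con-FMT, and each group overlapped its neighbours. With 3 mice a group this test could not reach 0.05. In limma without the filter its unadjusted p ran from 0.15 to 0.903 over 10 comparisons, with log2 changes from -0.04 to 0.08. At these levels the pseudocount of 1 shrinks the fold, and the highest group mean of Ciita was 1.62 times the lowest. The small log2 changes therefore do not bound its change.

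The spread between mice of a group was wide for these genes. The residual SD on the log2 scale was 0.39 for H2-Aa, 0.37 for H2-Ab1, 0.40 for Cd74 and 0.36 for H2-DMb1, above that of 93.1%, 92.1%, 93.3% and 91.3% of all genes tested. It was 0.28 for H2-DMa and 0.66 for H2-Eb1, above 82.8% and 98.1% of genes. The median over all genes was 0.17. Among genes within 0.5 log2 units of the same mean level the standing was much the same, for instance 93.4% for Cd74 and 98.2% for H2-Eb1.

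This spread was shared by the members. Over the 18 libraries Pearson's r of the log2 levels was 0.94 between H2-Aa and Cd74, 0.94 between H2-Ab1 and Cd74 and 0.90 between H2-Aa and H2-Ab1. With the group means taken away, so that only differences between mice of a group remained, these were 0.96, 0.94 and 0.96. These correlations describe libraries of 3 mice in each of 6 groups that share scaling and annotation. The ratio of Cd74 to H2-Aa stayed between 1.94 and 2.69 in the 18 livers and that of H2-Aa to H2-Ab1 between 1.17 and 1.85. The sum of the 7 genes ran from 44.4 RPKM in A10-FMT mouse 2 to 121.7 RPKM in AOS mouse 1. A10-FMT mouse 2 was the lowest of the 18 for H2-Aa, H2-Ab1, H2-DMa and Cd74. AOS mouse 1 was the highest for H2-Aa, H2-Ab1, H2-Eb1 and Cd74.

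**Figure D3:**
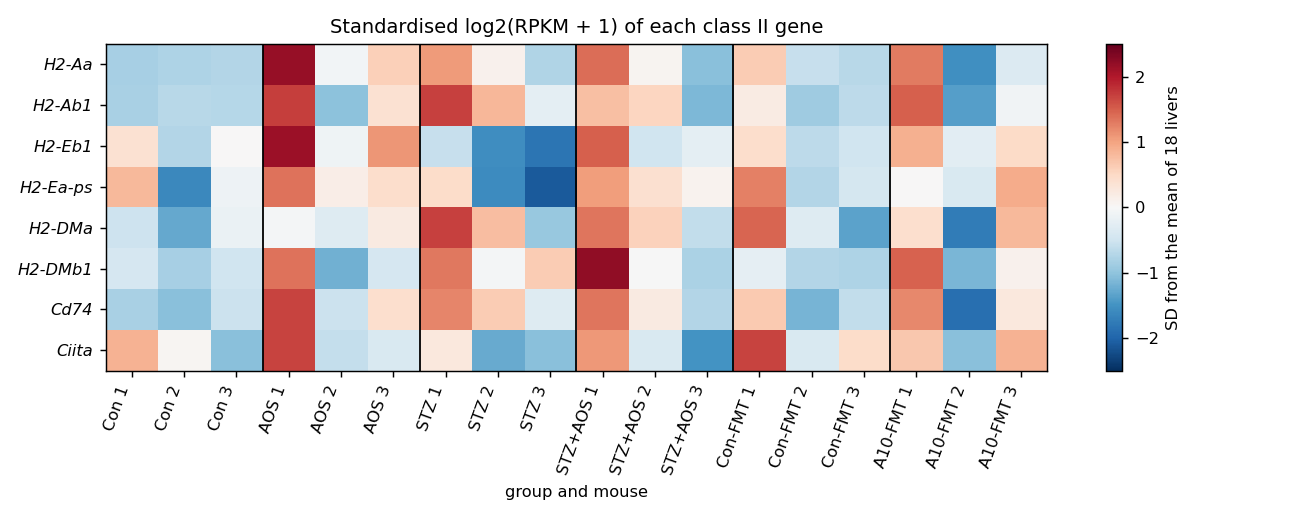
Level of each class II gene and of H2-Ea-ps (rows) in the 18 livers (columns, by group and mouse), as SD of log2(RPKM + 1) from the mean of the 18. Most rows of a column are red or blue together, as in AOS mouse 1 and A10-FMT mouse 2, while H2-Eb1 and H2-Ea-ps are blue in STZ mice 2 and 3.

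The animal labelled 1 was the highest of its group for H2-Eb1 and H2-DMb1 in 6 of 6 groups, and for H2-Aa, H2-Ab1, Cd74 and Ciita in 5 of 6. For H2-DMa it was mouse 1 in 3 groups and mouse 3 in the other 3. The labels give the number no meaning.

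H2-Eb1 was less like the other members between groups than between mice of a group. Its r over the 18 libraries was 0.64 with H2-Aa, 0.51 with Cd74 and 0.38 with H2-Ab1, but 0.84, 0.85 and 0.77 with the group means taken away. The ratio of H2-Eb1 to H2-Aa ran from 0.00599 in STZ mouse 3 to 0.304 in AOS mouse 1, a far wider range than the ratios of Cd74 to H2-Aa and of H2-Aa to H2-Ab1. The ratio of H2-Ea-ps to H2-Aa was as variable (CV 57.6% beside 59.8%), from 0 to 0.276. H2-Ea-ps, the α chain gene of the E molecule, is annotated as a polymorphic pseudogene in the C57BL/6J reference, and inbred strains are known to differ in whether they express it. It lies on chromosome 17 from 34341959 to 34344645 on the minus strand. It was listed at 0 in STZ mouse 3, and was 0.32 RPKM in STZ mouse 2 and 2.82 RPKM in STZ mouse 1. In Con it was 3.61, 0.30 and 1.83 RPKM, so Con mouse 2 was as low as STZ mouse 2. The r between H2-Eb1 and H2-Ea-ps was 0.82 over the 18 libraries and 0.76 with the group means taken away. H2-Ea-ps was 2.28 to 5.11 RPKM in the AOS mice, 2.16 to 4.20 RPKM in the STZ+AOS mice, 1.06 to 4.84 RPKM in the Con-FMT mice and 1.46 to 3.90 RPKM in the A10-FMT mice. Its log2 change in STZ against Con was -0.58 (-1.70 to 0.54, limma adjusted p = 0.401). Single mice set this value, which ran from -1.16 without STZ mouse 1 and -1.07 without Con mouse 2 to -0.19 without STZ mouse 3 and -0.16 without Con mouse 1. The labels give no H2 haplotype for any mouse.

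**Figure D4:**
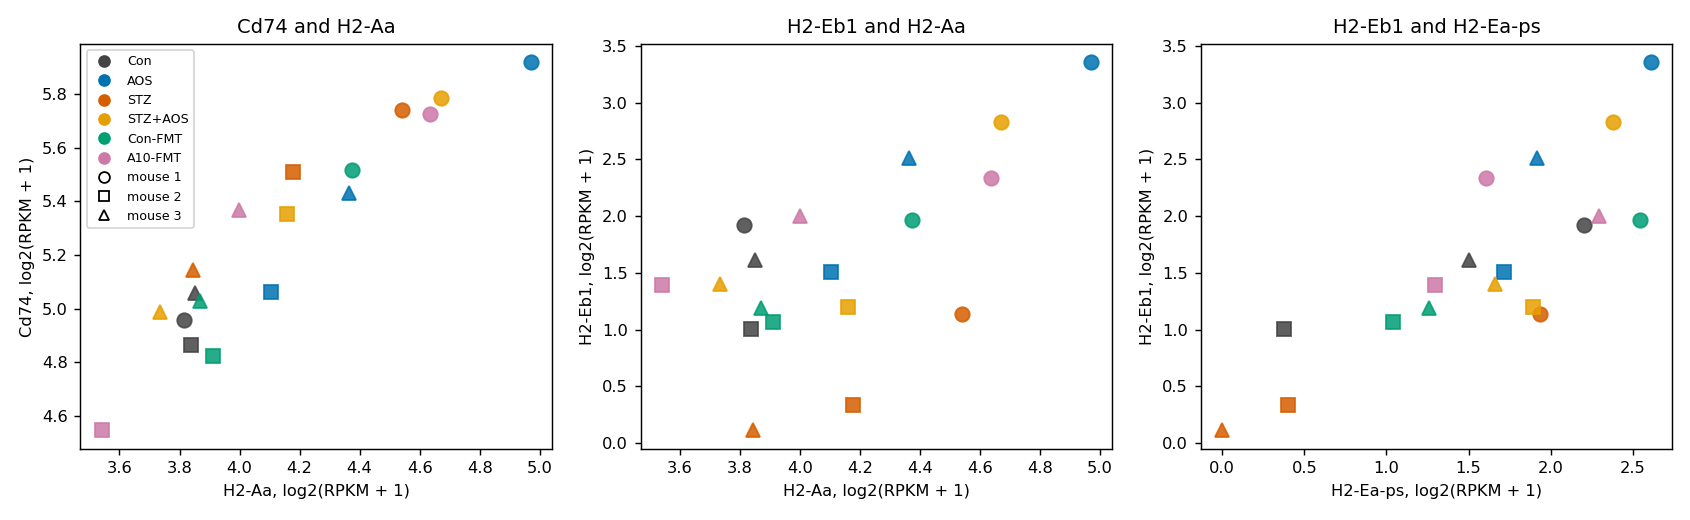
Levels of 3 pairs of class II genes in the 18 livers, as log2(RPKM + 1) on both axes, with colours for groups and symbols for mouse numbers. Cd74 rises with H2-Aa across all groups (r 0.94), the STZ mice lie below the other livers of like H2-Aa in the plot of H2-Eb1 on H2-Aa, and H2-Eb1 follows H2-Ea-ps (r 0.82).

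Genes that work with the class II molecules were described from lists chosen with earlier results of these data known, and the values of each gene in a group are given from the lowest mouse to the highest, not by mouse number. The endosomal enzymes and proteins that break down antigen and invariant chain were higher in STZ than in Con for 5 of 8 genes, lower for 0, with a median log2 change of 0.62 beside 0.21 for all genes. Over all 10822 genes tested 3336 were higher and 568 lower, the 36.1% called in this comparison, and the counts of called genes for each list are to be read beside that share. Ctsl, which encodes cathepsin L, was 235, 244 and 248 RPKM in the Con mice and 406, 681 and 1229 RPKM in the STZ mice, a log2 change of 1.52 (limma adjusted p = 0.00877). Cd63, a tetraspanin of late endosomes, rose from 5.47, 7.16 and 7.69 RPKM to 11.9, 29.7 and 48.4 RPKM, a log2 change of 1.81 (limma adjusted p = 0.00198). Ctsd, Lgmn and Ctsb, which encode cathepsin D, legumain and cathepsin B, rose by 0.65, 0.63 and 0.45. Cathepsin S, which finishes the invariant chain in most antigen-presenting cells, is encoded by Ctss. Its log2 change was 0.61 with a limma adjusted p of 0.133, and its STZ mice (16.1, 22.7 and 30.8 RPKM) overlapped the Con mice (11.4, 14.6 and 17.7 RPKM). Hepatocytes also express most of these lysosomal genes. Ctsb and Lgmn lost their call under median-ratio scaling and under quantile normalization, with adjusted p values up to 0.27 and 0.193 and log2 changes down to 0.18 and 0.35. Single mice also decided them: the adjusted p of Ctsb was 0.0822 without STZ mouse 1 and 0.0543 without Con mouse 2, and that of Lgmn 0.102 without STZ mouse 2 and 0.0776 without Con mouse 2. In the fit of only the compared groups that of Ctsb was 0.0748. Ctsd and Cd63 were called under all 15 alternatives (log2 changes of at least 0.37 and 1.37) and Ctsl under 14, with an adjusted p of 0.0541 without STZ mouse 2.

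Of the 10 genes for proteins that assemble on class II promoters, 2 were higher and 1 lower in STZ than in Con, with a median log2 change of 0.20. Both the share and the median were near those of all genes (36.1% and 0.21). With the mice again ordered by value, Rfxank, a subunit of the RFX complex that binds the X box, fell from 8.45, 9.27 and 9.68 RPKM in Con to 2.38, 3.91 and 6.06 RPKM in the STZ livers, with a log2 change of -1.05 (limma adjusted p = 0.00108) that was called under all 15 alternatives. Its levels in A10-FMT were 2.61, 3.08 and 3.14 RPKM, a log2 change from Con of -1.36 (limma adjusted p = 0.000552). The log2 change of Rfxank from Con was -0.79 in Con-FMT (limma adjusted p = 0.0139). In AOS without STZ it was -0.59 and was not called (limma adjusted p = 0.574). In STZ against Con the RFX subunit genes Rfx5 and Rfxap had log2 changes of 0.22 and 0.12 and were not called. Nfyc, a subunit of the NF-Y complex that binds the Y box, rose by 0.55, and the coactivator gene Crebbp by 0.38. Both calls were lost under median-ratio scaling (log2 changes 0.30 and 0.19) and under quantile normalization (0.28 and 0.21), and that of Nfyc also in the fit of only the compared groups (adjusted p = 0.0589), without STZ mouse 1 (0.0588) and without STZ mouse 2 (0.0557). Crebbp was lower in A10-FMT than in STZ by a log2 change of -0.45 (limma adjusted p = 0.0431), but this call held under only 4 of 15 alternatives. It was lost without any 1 A10-FMT mouse and without STZ mouse 1 or 2, with adjusted p values from 0.0626 to 0.275.

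Interferon gamma is the best known inducer of Ciita. Among 7 tested genes of its receptor and signalling chain 1 was higher in STZ than in Con and 0 lower, beside 36.1% of all genes called. This was Jak1, a receptor kinase, at 15.0, 15.4 and 15.9 RPKM in Con (lowest to highest, as for Ifi47) and 19.6, 20.0 and 20.3 RPKM in STZ (log2 change 0.35, limma adjusted p = 0.00231), a call lost under both other scalings, where the log2 change was 0.095 (median-ratio) and 0.083 (quantile). Among 13 tested genes that respond to interferon gamma, 0 were higher and 1 was lower, beside the same 36.1%. Ifi47, an interferon-induced GTPase, fell from 17.4, 23.3 and 25.2 RPKM to 6.08, 13.9 and 14.6 RPKM (log2 change -0.94, limma adjusted p = 0.0129), with 3 alternatives ending the call. These were the fit of only the compared groups (adjusted p = 0.0595), leaving out STZ mouse 2 (0.0684, with a log2 change of -0.57) and leaving out Con mouse 1 (0.0563). Iigp1, the most abundant of the list, had a log2 change of 0.10. Icam1, an adhesion molecule that aids T cell contact and the only 1 of 5 costimulation genes that passed the filter, had a log2 change of 0.61 and was called, but 8 of 15 alternatives ended the call. Among these, the adjusted p was 0.0593 without STZ mouse 1, 0.168 without STZ mouse 2 (log2 change 0.36), 0.105 without Con mouse 2 and 0.0601 without Con mouse 3. The log2 change was 0.37 under median-ratio scaling and 0.36 under quantile normalization. Of 5 genes for turnover of class II molecules at the surface, only Cd83 was found in the table, at a mean of 0.604 RPKM. It did not pass the filter and was not tested. It was 0.36, 0.34 and 0.21 RPKM in Con mice 1 to 3 and 0.74, 1.00 and 0.86 RPKM in STZ mice 1 to 3. It was 0.25 to 0.36 RPKM in AOS, 0.64 to 1.97 RPKM in STZ+AOS, 0.43 to 0.94 RPKM in Con-FMT and 0.25 to 0.68 RPKM in A10-FMT.

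Markers of cells that carry class II molecules were measured in the same livers. For dendritic cells all 10 markers were in the table and 1 passed the filter, the transcription factor gene Zbtb46 at a mean of 1.34 RPKM. The summed level was 2.43, 2.13 and 2.66 RPKM in Con mice 1 to 3, 3.12, 3.57 and 2.44 RPKM in the AOS mice and 3.96, 3.04 and 2.40 RPKM in the STZ mice. It was 3.49, 2.76 and 2.93 RPKM in the STZ+AOS mice, 3.08, 2.49 and 2.27 RPKM in the Con-FMT mice and 4.13, 2.15 and 2.75 RPKM in the A10-FMT mice. The summed level had an r of 0.73 (on the log2 scale) with the mean class II level, the mean standardised log2 level of the 6 genes tested, over 18 livers, and 0.67 with the group means taken away. Zbtb46 by itself had an r of 0.24, and 0.05 with the group means taken away, so the likeness lay in markers below the filter. No marker was at 0 in all libraries, but 5 were at 0 in at least 1. These are sums of low values, and their part in the class II levels was not tested.

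The summed B cell markers were lower in every STZ mouse than in every Con mouse, with no test. Among all genes tested, STZ and Con did not overlap for 47.6%. Of 10 listed, 8 were in the table and 0 passed the filter, with Cd79a, a B cell receptor subunit gene, the most abundant at 0.563 RPKM. Their sum was 2.19, 2.16 and 2.16 RPKM in Con mice 1 to 3 and 1.04, 0.75 and 0.51 RPKM in the STZ mice. It was 2.38, 2.50 and 3.14 RPKM in the AOS mice and 0.93, 1.57 and 0.64 RPKM in the STZ+AOS mice. It was 2.14, 1.76 and 1.07 RPKM in the Con-FMT mice and 0.83, 1.67 and 1.12 RPKM in the A10-FMT mice. In STZ against Con the direction was that of H2-Eb1 and not that of H2-Aa, H2-Ab1 or Cd74. Against Con, the means of the B cell sum and of H2-Eb1 were both higher in AOS and both lower in Con-FMT. They went opposite ways in the other groups. The B cell sum averaged 1.05 RPKM in STZ+AOS and 1.21 RPKM in A10-FMT, below 2.17 RPKM in Con. H2-Eb1 averaged 3.02 and 2.88 RPKM there, above 1.95 RPKM in Con. Over the 18 livers r with the mean class II level was -0.06. Fcrla was at 0 in 9 libraries, Pax5 in 3 and Ms4a1 in 1. The part of B cells in these results was not tested.

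All 10 Kupffer cell (liver macrophage) markers passed the filter, 2 of them higher and 0 lower in STZ than in Con, beside 36.1% of all genes called, with a median log2 change of 0.58 beside 0.21. These were Marco, a scavenger receptor gene, with a log2 change of 2.79 (limma adjusted p = 0.00363) that was called under all 15 alternatives, and Timd4, a phosphatidylserine receptor gene, with 0.79 (limma adjusted p = 0.0237). The call of Timd4 was ended by 6 of 15 alternatives, with adjusted p values of 0.0783 under median-ratio scaling, 0.0699 under quantile normalization, 0.0656 in the fit of only the compared groups, 0.0759 without STZ mouse 1, 0.128 without STZ mouse 2 and 0.0874 without Con mouse 2. Their sum averaged 163 ± 34.6 RPKM in Con, 189 ± 29.9 RPKM in AOS and 287 ± 92.1 RPKM in STZ (SD, n = 3). It averaged 244 ± 46.6 RPKM in STZ+AOS, 203 ± 46.8 RPKM in Con-FMT and 203 ± 93.5 RPKM in A10-FMT. C1qb, a complement gene, was the most abundant at 37.4 RPKM. The sum was lowest in A10-FMT mouse 2 at 94.7 RPKM, the liver that was also lowest for 4 class II genes, and highest in STZ mouse 2 at 369 RPKM. Its r with the mean class II level was 0.54. None of these markers was at 0 in any library. The 7 general leukocyte markers, led by Tyrobp at 16.2 RPKM, ran from 26.1 RPKM in A10-FMT mouse 2 to 67.3 RPKM in STZ+AOS mouse 1, with r of 0.69, and 0 of 7 were called in STZ against Con, beside 36.1% of all genes. The 7 hepatocyte markers had an r of 0.02 with the class II level. The part of these cells in the class II levels was not tested.

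**Figure D5:**
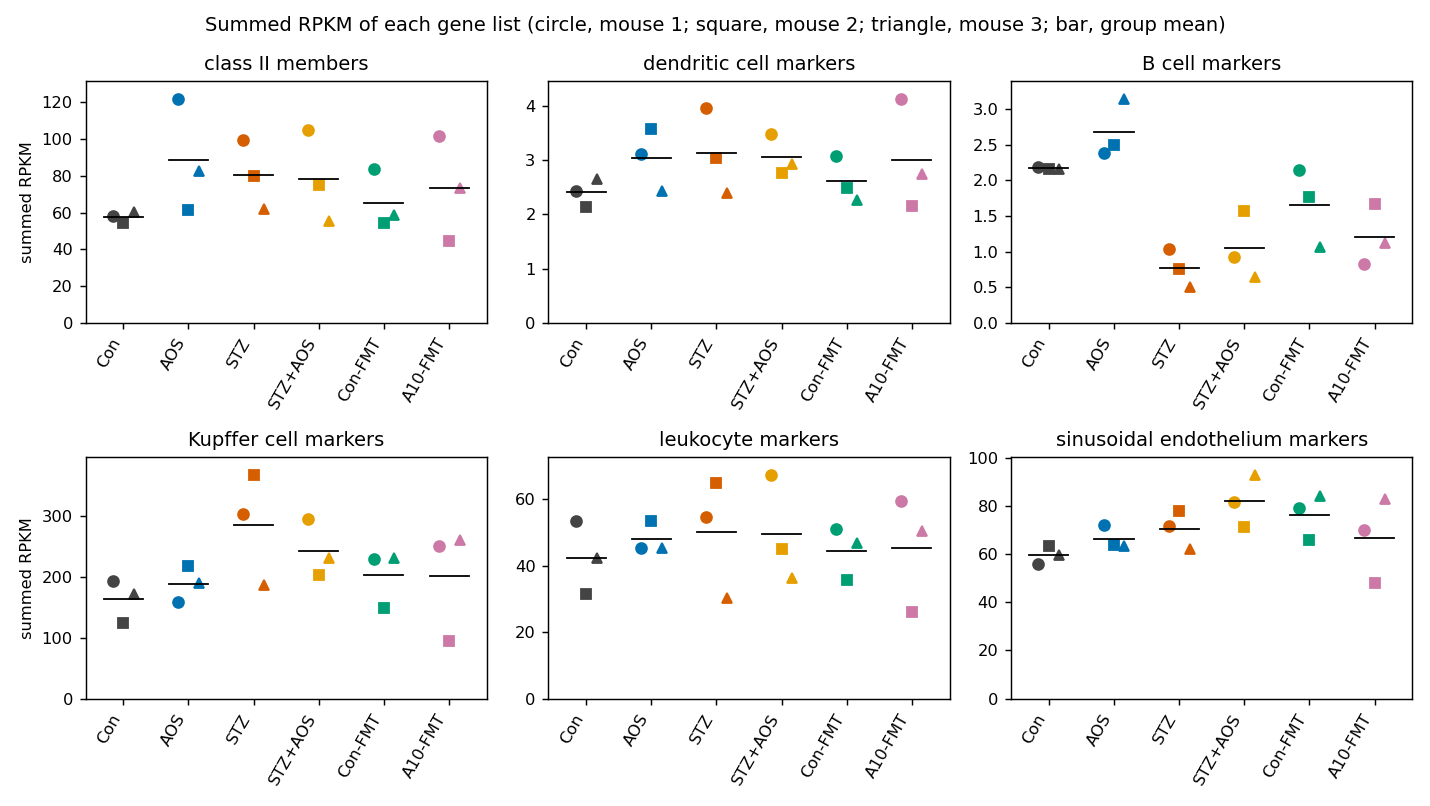
Summed RPKM (vertical axes, linear, from 0) of the 7 class II genes and of 5 marker lists in the 3 mice of each group, with the group mean as a bar. The class II sum spans 44.4 to 121.7 RPKM, and A10-FMT mouse 2 is lowest in the class II, Kupffer cell, leukocyte and sinusoidal endothelium panels. The B cell sum is lower in every STZ mouse than in every Con mouse, beside 47.6% of all genes tested without overlap.

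The genes with the pattern most like the class II genes were ranked by Pearson's r with the mean standardised level of the 6 genes over 18 livers, among 10816 genes. The 10 highest were Ccr3 (r 0.82), a chemokine receptor gene, then Fam3a (0.80), Slc7a8 (0.78), Tmem106a (0.74), Clec7a (0.74), Bcl9 (0.74), Pld4 (0.74), Naaa (0.73), Fgd2 (0.73) and Lrtm1 (0.73). Clec7a encodes dectin-1, a receptor of myeloid cells. The 5 lowest were Phlda2 (-0.75), Lman2l (-0.71), Fmn2 (-0.71), Rbm15b (-0.70) and 4921524J17Rik (-0.68). With the group means taken away the 10 highest were Pex2 (0.90), Crybg1 (0.89), Grb2 (0.87), Ccr3 (0.86), Trnau1ap (0.85), Pdgfa (0.85), Cers6 (0.84), Dusp10 (0.84), Gstm2 (0.83) and Mus81 (0.83). Only Ccr3 was in both lists of 10. H2-Ea-ps ranked 197 of 10816 over the 18 livers.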

How the data were processed

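Livers from 18 mice in 6 labelled groups were analysed. The authors deposited RPKM values per gene symbol with no counts, rounded to 2 decimals, so depth could only be estimated. Reads were aligned to mm10; the submitters' processing notes name Bowtie 0.12.2, while the methods of the study name SOAPaligner, and strand use in counting is not given in the sources used here. Symbols altered to dates (26) could not be matched. Values were tested as log2(RPKM + 1) in limma 3.58.1 (R 4.3.3), with 1 model for all 6 groups, a variance trend, a filter of 1 RPKM in at least 3 libraries, and Benjamini-Hochberg adjustment over 10822 genes with a threshold of 0.05. Fold changes are on the log2(value + 1) scale and understate changes of low genes. Ciita was tested by exact permutation (Python 3.11.15, SciPy 1.17.1). The limma p-values set group differences against the spread between mice within groups, estimated over all 6 groups. Nothing says which mice shared a cage or day, and no p-value covers such differences. Each transplanted group received material pooled over its donors, so no p-value covers differences between donors or pools. The fit was tested on simulated data.

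The members and lists were chosen with earlier results of these data known. All 7 members were named, with up to 3 of the most abundant genes of each list, every gene of a class II pathway list called in STZ against Con or in a transplant against STZ, and the genes most like the members. Ctss, Rfx5, Rfxap, Pax5, Fcrla, Ms4a1, H2-Eb2, Nlrc5, Psmb9, Marco, Timd4, Plac8 and Pecam1 were named after their values were seen. Alternatives were other scalings, pseudocount, filters, fits of fewer groups, no trend, a block on mouse number and leaving out each mouse. Gene positions are from GENCODE M21 and promoter sequences from RefSeq (GRCm38.p6). No columns held identical values.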

Additional observations from a re-analysis of the deposited data

How the results depend on the processing

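The absence of class II calls held in all 10 comparisons under the other scalings, filters and variance settings, fits of the compared groups only and leaving out each mouse, except as follows. H2-Eb1 became the 1 called gene in STZ against Con with a pseudocount of 0.1 and in the fit of the 4 groups of the study (cause not tested). The labels do not pair the samples by mouse number. Same-numbered mice of different groups had correlations of deviations with a mean of 0.04 (-0.25 to 0.47 over 45 pairs). Mouse 1 was nonetheless the highest of its group for H2-Eb1 and H2-DMb1 in 6 of 6 groups. The mean correlation therefore does not show that the number was without bearing on these genes, and what it stands for was not tested. With mouse number as a replicate block, H2-Eb1 was the 1 called gene in STZ against Con (log2 change -0.99, limma adjusted p = 0.00562), A10-FMT against STZ (1.38, 0.0392) and STZ+AOS against AOS (-0.65, 0.0385), and no other class II call was made. A filter of 1 RPKM in every library left 3 of the 6 genes.

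Some log2 changes near 0 turned sign. With median-ratio scaling and quantile normalization, Con-FMT against Con gave -0.051 and -0.088 for Cd74, -0.094 and -0.12 for H2-Ab1, -0.12 and -0.085 for H2-DMb1, and with quantile normalization -0.027 for H2-Aa. STZ+AOS against STZ gave -0.046 and -0.059 for H2-Aa, and -9.61e-05 with a pseudocount of 0.1. STZ+AOS against AOS gave -0.030 and -0.025 for H2-DMa. Without single mice, A10-FMT against STZ ran from -0.51 to 0.084 for Cd74, -0.42 to 0.13 for H2-Aa, -0.36 to 0.027 for H2-DMa and -0.40 to 0.051 for H2-DMb1. Con-FMT against STZ ran from -0.31 to 0.042 for H2-Aa and -0.34 to 0.015 for H2-DMa. A10-FMT against Con ran from -0.0023 to 0.59 for Cd74, -0.065 to 0.48 for H2-Aa and -0.0042 to 0.32 for H2-DMa. Con-FMT against Con ran from -0.034 to 0.31 for Cd74, -0.0100 to 0.19 for H2-Ab1, -0.045 to 0.31 for H2-DMa, -0.059 to 0.038 for H2-DMb1 and -0.39 to 0.10 for H2-Eb1. A10-FMT against Con-FMT ran from -0.17 to 0.43 for Cd74, -0.28 to 0.27 for H2-Aa, -0.10 to 0.42 for H2-Ab1 and -0.19 to 0.17 for H2-DMa. AOS against Con ran from -0.079 to 0.36 for H2-DMb1. STZ+AOS against STZ ran from -0.29 to 0.11 for Cd74, -0.24 to 0.23 for H2-Aa, -0.20 to 0.13 for H2-DMa and -0.36 to 0.16 for H2-DMb1. STZ+AOS against AOS ran from -0.30 to 0.13 for Cd74, -0.36 to 0.14 for H2-Ab1 and -0.11 to 0.44 for H2-DMb1. The difference of the STZ effect with AOS ran from -0.53 to 0.022 for H2-DMb1 and -0.17 to 0.78 for H2-Eb1.

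The alternatives for the pathway and marker genes and for H2-Ea-ps were chosen after seeing the data. Depth limits H2-DMa, H2-DMb1, Ciita and the low H2-Eb1 values most.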

Other observations

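Class I presentation was measured in the same livers, and values in a group are given from the lowest mouse to the highest. Of 10 genes, 1 was higher and 1 lower in STZ than in Con, beside 36.1% of all genes called (3336 higher and 568 lower of 10822), with a median log2 change of -0.03 beside 0.21 for all genes. Nlrc5, the class I counterpart of Ciita, was 1.79, 2.07 and 2.23 RPKM in Con and 2.50, 4.32 and 5.24 RPKM in STZ (log2 change 0.69, limma adjusted p = 0.0134), and 5 of 15 alternatives ended the call, among them leaving out STZ mouse 1 (adjusted p = 0.0703), STZ mouse 2 (0.0558) or Con mouse 1 (0.054). Psmb9, an immunoproteasome subunit gene, was 18.5, 22.0 and 26.5 RPKM in Con, 9.80, 13.9 and 15.6 RPKM in STZ and 24.9, 27.4 and 32.8 RPKM in A10-FMT. It was lower in STZ than in Con (log2 change -0.74, limma adjusted p = 0.0104) and higher in A10-FMT than in STZ (1.07, limma adjusted p = 0.0364). The first call was ended by 2 of 15 alternatives, leaving out STZ mouse 2 (adjusted p = 0.0623) or Con mouse 1 (0.0551). The other was ended by 7 of 15, among them leaving out any 1 A10-FMT mouse (0.109 to 0.148), STZ mouse 1 (0.0538) or STZ mouse 2 (0.22). Both genes were picked after their values were seen.

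Of the remaining marker lists, 2 of 4 tested monocyte markers were higher and 0 lower in STZ than in Con, 1 of 7 sinusoidal endothelium markers was higher and 0 lower, and 0 of 3 tested neutrophil markers were called, beside the same 36.1% of all genes. The monocyte genes were Lyz2 (log2 change 1.06) and Plac8 (0.73) and the endothelial gene was Pecam1 (0.54), and 6, 8 and 7 of 15 alternatives ended these calls, median-ratio scaling and quantile normalization among them. Without STZ mouse 2 the limma adjusted p was 0.0974 for Lyz2 (log2 change 0.70), 0.0579 for Plac8 and 0.154 for Pecam1 (0.37). Under quantile normalization Plac8 had a log2 change of 0.48 and Pecam1 0.34. Leaving out STZ mouse 1 or Con mouse 2 ended the calls of Lyz2 and Plac8, Con mouse 1 or 3 those of Plac8 and Pecam1, with adjusted p values from 0.0515 to 0.117. Of the T cell markers only Cd4 passed the filter, and did so through the 3 Con mice alone, at 1.03, 1.16 and 1.29 RPKM. It was 0.16 to 0.29 RPKM in STZ, and because the filter admitted it through the group where it was high, no test of it is given. The summed T cell markers were 2.67, 2.35 and 2.10 RPKM in Con mice 1 to 3 and 1.71, 1.17 and 0.91 RPKM in STZ mice 1 to 3, with no test. Their r with the mean class II level was 0.31 over the 18 livers and 0.69 with the group means taken away. For Cd4 by itself these were -0.33 and -0.35. The part of T cells in the class II levels was not tested.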
